A study of Mus musculus with 6 samples.

Results

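The 8 genes described here encode membrane transporters of the solute carrier (Slc) superfamily: Slc22a6, Slc22a8, Slc22a2, Slc13a4, Slc16a12, Slc47a1, Slc6a13 and Slc6a20a. They were taken by symbol from the 31053 genes of the count matrices and were followed across the cell classes of a single-cell RNA sequencing series of the adult mouse brain surface. The series compared cells freed from the top of the cortex (cortical surface-associated, CSA, labelled as brain, 4 libraries) with cells of the tissue lining the inner skull (bone-associated, BA, labelled as dura and skull, 2 libraries). All mice were adults of the C57BL6 genotype, no treatment is named, and each library pooled tissue of several animals of both sexes that were not perfused. A library therefore averages over animals, and p-values measure the spread between libraries, which may be partly technical. The protocol in the labels describes a papain digest of another brain region, whereas the methods of the study describe a collagenase and dispase digest. Because preparation, dissection and tissue changed together, the tissue of origin and the way the cells were freed cannot be told apart in any comparison of CSA with BA cells.

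Solute carriers move small molecules across membranes, down their gradients, together with ions or in exchange for ions or other solutes. The leptomeninges, the thin cell layers between the brain surface and the dura, border the cerebrospinal fluid, and organic anion and neurotransmitter transporters are known in them as in the choroid plexus and the kidney tubule. In brain endothelial cells, Slc22a8 is known as part of the blood-brain barrier. Of the 8, Slc22a6 (OAT1) and Slc22a8 (OAT3) exchange organic anions, Slc22a2 (OCT2) carries organic cations and Slc47a1 (MATE1) expels organic cations against protons. Slc13a4 cotransports sulfate with sodium, Slc16a12 (MCT12) carries creatine, Slc6a13 (GAT2) takes up GABA and taurine, and Slc6a20a (SIT1) takes up proline and related imino acids.

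Several of the genes have relatives next to them in the genome (coordinates in GRCm38). Slc22a8 (ENSMUSG00000063796) lies at chr19:8591254-8611835 on the plus strand, and Slc22a6 (ENSMUSG00000024650) follows it on the same strand at chr19:8618039-8628299, 6203 bases further on. Slc22a2 (ENSMUSG00000040966) lies at chr17:12584132-12628488 on the plus strand, 76427 bases from Slc22a3, another organic cation transporter gene, which had 0 UMIs in leptomeningeal and in dural cells. Slc6a13 (ENSMUSG00000030108), at chr6:121300227-121337733 on the plus strand, is 5342 bases from Slc6a12, a betaine and GABA transporter gene. Slc47a1 (ENSMUSG00000010122), at chr11:61343401-61378345 on the minus strand, is 540 bases from Slc47a2. Slc13a4 (ENSMUSG00000029843) lies at chr6:35267957-35308131 and Slc16a12 (ENSMUSG00000009378) at chr19:34668403-34747289, both on the minus strand.

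Slc6a20a (ENSMUSG00000036814), at chr9:123634770-123678885 on the minus strand, is 2204 bases from its near copy Slc6a20b, so reads could be split between the pair. Slc6a20b itself reached a mean of only 2.78 CPM in leptomeningeal cells. Slc6a20a overlaps Ccr9 and 4 noncoding genes, Slc16a12 a processed pseudogene and Slc6a13 a microRNA gene. How the counting treated overlapping genes is not given in the sources used here, so the values of these 3 genes are less certain than those of the others.

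The sequences around the starts of 4 members are shown because they include the adjacent pair Slc22a8 and Slc22a6 and the pair with the most alike pattern over all cell classes, Slc6a20a and Slc16a12. Each runs 5′ to 3′ on the strand of the gene, from 250 bases before to 50 bases after the start, as given by RefSeq for GRCm38.p6. Capitals mark the letters of the motifs found, on either strand. The motifs searched were TGTTTAC for forkhead factors, GGAATG for TEAD factors, AGGTGTGA for T-box factors, the HNF1 motif, TATAAA as the TATA box, CCAAT as the CCAAT box and GGGCGG as the GC box.
Slc22a8, chr19:8592932-8593231, plus strand: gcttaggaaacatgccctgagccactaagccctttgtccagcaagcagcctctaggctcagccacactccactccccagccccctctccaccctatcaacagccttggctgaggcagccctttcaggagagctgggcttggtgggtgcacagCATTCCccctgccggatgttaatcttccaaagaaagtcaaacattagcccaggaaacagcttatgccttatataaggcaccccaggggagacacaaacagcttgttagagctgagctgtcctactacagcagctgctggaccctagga
Slc22a6, chr19:8617746-8618045, plus strand: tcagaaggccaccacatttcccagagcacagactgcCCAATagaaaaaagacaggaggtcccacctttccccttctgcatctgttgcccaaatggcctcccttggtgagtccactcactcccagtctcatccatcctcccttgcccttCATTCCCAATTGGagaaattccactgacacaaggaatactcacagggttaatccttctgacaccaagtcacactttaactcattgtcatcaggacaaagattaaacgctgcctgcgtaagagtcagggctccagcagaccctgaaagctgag
Slc6a20a, chr9:123678783-123679082, minus strand: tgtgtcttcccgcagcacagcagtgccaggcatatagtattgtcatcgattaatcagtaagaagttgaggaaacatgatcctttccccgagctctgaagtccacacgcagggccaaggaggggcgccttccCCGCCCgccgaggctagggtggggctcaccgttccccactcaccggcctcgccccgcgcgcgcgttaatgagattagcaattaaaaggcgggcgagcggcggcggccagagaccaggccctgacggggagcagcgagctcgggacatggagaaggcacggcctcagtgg
Slc16a12, chr19:34747279-34747578, minus strand: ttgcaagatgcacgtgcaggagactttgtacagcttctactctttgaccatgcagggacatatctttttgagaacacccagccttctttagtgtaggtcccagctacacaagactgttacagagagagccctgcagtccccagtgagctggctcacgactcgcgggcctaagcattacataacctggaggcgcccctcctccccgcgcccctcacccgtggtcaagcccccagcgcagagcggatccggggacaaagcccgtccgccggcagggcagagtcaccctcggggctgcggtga

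Of the 8 genes, 7 matched this table, with 9 starts, and Slc47a1 was not in it. The TEAD letters stood in the windows of Slc22a6, Slc22a8, Slc22a2, Slc13a4 and the first start of Slc6a13, and in 14.7% of all 32851 windows of that length. In Slc22a6 they overlapped the CCAAT letters by a base. CCAAT letters stood in the windows of Slc22a6, Slc22a2, Slc13a4 and Slc6a13 and in 37.4% of all windows, and GC box letters in those of Slc13a4, Slc6a13 and Slc6a20a and in 35.7% of all. The forkhead, T-box, HNF1 and TATA letters stood in none of the members' windows and in 3.65%, 1.28%, 0.0609% and 13.6% of all windows. Slc16a12 held none of the letters searched. These are descriptions of the windows and not binding sites.

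After filtering, 8680 cells remained, of which 5272 were CSA and 3408 BA cells, and 1205 of them stayed in clusters without a name. The 6 libraries held 739 to 2452 cells with a median depth of 5453 to 9525 UMIs per cell (a UMI, or unique molecular identifier, marks an original RNA molecule). The libraries CSA3 and CSA4 stood apart, with 17.9% and 12.1% of the UMIs of their cells on hemoglobin genes against at most 0.524% in the other 4. Leaving hemoglobin genes out of all totals changed no member's call. Any pair of libraries shared at most 2 cell barcodes. Mesenchymal-like cells numbered 274 in the CSA libraries (78, 136, 29 and 31 in CSA1 to CSA4) and 281 in the BA libraries (32 in BA1 and 249 in BA2), and all 8 of their markers, among them Dcn, Col1a2 and Lum, led them in both preparations. The CSA cells are called leptomeningeal and the BA cells dural here: the summed level of Gjb6, Gjb2, Ptgds, Lama1 and Bmp6 ranged from 63394 to 91881 CPM in the leptomeningeal and from 54.0 to 489 CPM in the dural sums, and that of H19, Matn4, Clec11a and Shisa3 from 0 to 60.2 and from 3447 to 3762 CPM.

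Among the kept cells of the series, leptomeningeal cells held most of the RNA of 5 of the 8 genes. Of all UMIs in kept cells, they had 93.5% of the 2057 for Slc22a6, 87.3% of the 4503 for Slc6a13, 70.3% of the 3560 for Slc6a20a, 69.9% of the 1698 for Slc13a4 and 64.4% of the 180 for Slc22a2. The share was 43.8% of 552 UMIs for Slc16a12 and 32.8% of 1538 for Slc22a8, which were also found in vascular cells. Slc47a1 went the other way, with 12.4% of its 756 UMIs in leptomeningeal and 652 UMIs in dural cells.

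Slc22a6, the organic anion exchanger, reached 794, 907, 796 and 520 CPM (UMIs of the gene in 1000000 UMIs of the class) in the leptomeningeal cells of CSA1 to CSA4. The mean was 754 ± 165 CPM (SD, n = 4), and 88.0% of the cells had a UMI. The dural cells had 0 CPM in BA1 and 3.52 CPM in BA2, from 13 UMIs in 5 of 281 cells. No library of dural cells came near a leptomeningeal library. Across all other classes of both preparations the highest mean was 11.7 ± 11.7 CPM (n = 4), in CSA border macrophage-like cells.

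Slc22a8, the neighbouring anion exchanger, reached 188, 234, 196 and 246 CPM in the leptomeningeal libraries, with a mean of 216 ± 28.5 CPM (n = 4). A UMI was found in 62.0% of these cells. Dural cells held 3 UMIs in 3 cells, all in BA2. The leptomeningeal libraries varied little among themselves and lay far above both dural libraries, but CSA endothelial-like cells overlapped them, as given further on.

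Slc22a2, the organic cation transporter, had 37.9, 58.7, 61.7 and 21.9 CPM in leptomeningeal cells (mean 45.0 ± 18.7, n = 4), and 18.6% of the cells had a UMI. No UMI was found in 281 dural cells, which allows up to 1.07% of the cells to hold a UMI. The next level was that of BA vascular smooth muscle cell (VSMC)-like cells, with 11.1 and 8.79 CPM, below every leptomeningeal library. In the CSA VSMC-like cells the values were 2.94 and 0 CPM.

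Slc13a4, the sulfate transporter, reached 588, 510, 465 and 377 CPM in leptomeningeal cells (mean 485 ± 87.8, n = 4). Dural cells held it at 44.7 and 26.5 CPM, from 122 UMIs in 49 of 281 cells. Both dural libraries were below every leptomeningeal library and above the libraries of all other classes except the BA choroid plexus-like cells.

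Slc16a12, the creatine carrier, had 151, 79.8, 163 and 82.1 CPM in leptomeningeal cells (mean 119 ± 44.2, n = 4), with a UMI in 49.6% of the cells, and 0 UMIs in dural cells. Slc6a13, the GABA and taurine transporter, was found in 93.4% of leptomeningeal cells, at 1562, 1887, 1396 and 1242 CPM (mean 1522 ± 276, n = 4). Its 32 dural UMIs lay in 6 cells of BA2, 23 of them in a single cell. Slc6a20a, the imino acid transporter, had 1306, 1094, 723 and 689 CPM (mean 953 ± 298, n = 4) with a UMI in 93.1% of cells, and 5 UMIs in dural cells, at 3.72 and 0.811 CPM. For all 3 genes the leptomeningeal and dural libraries did not overlap.

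Slc47a1, the proton-coupled cation exporter, was the exception. Dural cells had 153 and 154 CPM with a UMI in 44.1% of cells, whereas leptomeningeal cells had 0, 53.4, 0 and 126 CPM with a UMI in 3.65% of cells. All leptomeningeal libraries were below both dural ones, but CSA4 came close to them and CSA1 and CSA3 held no UMI.

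**Figure D1:**
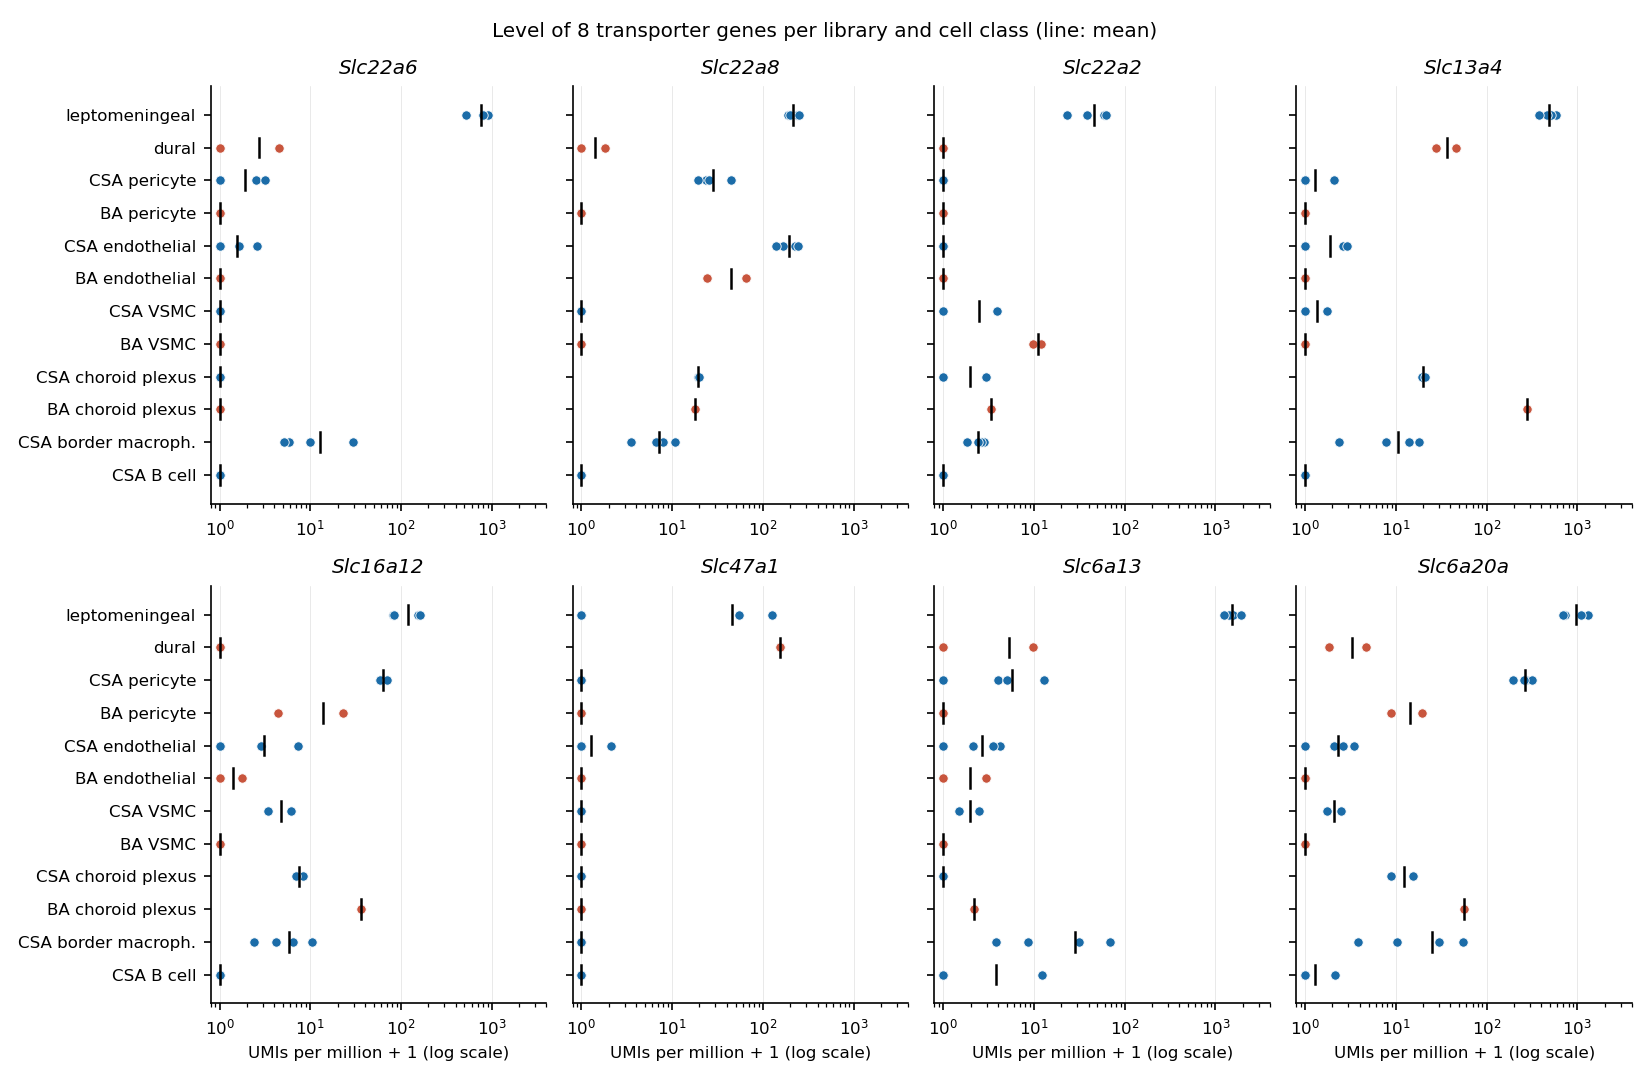
Level of each of the 8 genes in CPM plus 1 (log axis) by cell class, with a point for each library of at least 10 cells (blue, cortical surface-associated; red, bone-associated) and a line at the mean. Slc22a6 and Slc6a13 stand out in leptomeningeal cells, at means of 754 and 1522 CPM, Slc22a8 is as high in CSA endothelial-like cells, Slc6a20a and Slc16a12 extend to CSA pericyte-like cells, and Slc47a1 is highest in dural cells.

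The test of leptomeningeal against dural cells (edgeR quasi-likelihood test on UMIs summed per library, with the Benjamini-Hochberg adjustment) called 7 of the 8 genes higher in leptomeningeal cells. A call needed an adjusted p below 0.05 together with a log2 difference of 1.3 or more in size. Of all 9501 genes tested, 5.62% were called higher and 8.28% lower. The members had been chosen with earlier results of these data known. Only genes detected in more than 10% of leptomeningeal or of dural cells were tested: Slc13a4 passed through both groups, Slc47a1 through dural cells alone and the other 6 through leptomeningeal cells alone, so the count describes the members and supports nothing further. Their median log2 fold change was 8.10, or 7.57 with Slc22a2 and Slc16a12 at their lower bounds, against -0.02 over all genes tested.

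Among the members, the log2 fold change was 8.05 ± 0.47 (SE) for Slc22a6 (adjusted p = 6.33e-09), 7.93 ± 0.55 for Slc6a13 (adjusted p = 3.65e-08) and 9.51 ± 0.53 for Slc6a20a (adjusted p = 4.01e-09). Slc13a4 differed by less, at 3.98 ± 0.32 (adjusted p = 1.58e-07), with all 4 CSA libraries above both BA libraries. Slc22a8 was called at 8.14 ± 0.53 (adjusted p = 1.88e-08), and as it rested on 3 dural UMIs, its pooled ratio of 310 had a counting interval of 106 to 1510 (95%, exact). Against a floor of 3 UMIs over the group, which had no UMI of either gene, Slc22a2 was at least 71.3-fold and Slc16a12 at least 149-fold higher in leptomeningeal cells (adjusted p = 1.71e-06 and 1.99e-07). Slc47a1 was not called, at -1.80 ± 0.73 (adjusted p = 0.106, interval -3.23 to -0.38). It was called lower in 3 alternative fits: without CSA4 (log2 -2.46, adjusted p = 0.00445), at 1500 UMIs per cell (log2 -2.21, adjusted p = 0.00607) and with a replicate block (log2 -2.30). In the block fit, CSA3 and CSA4 took no part in the difference, as they have no equally numbered BA library. Few libraries were left beyond its terms to estimate the spread, so its p-value is not given. All binomial and counting intervals here cover counting error only.

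Markers of other cells moved with this comparison. Border macrophage markers (8 of 8 with a UMI) summed to 36.9 to 858 CPM in the leptomeningeal and 3.72 to 5.41 CPM in the dural sums, where Cd163, Cbr2 and Folr2 were at 0. In leptomeningeal cells, choroid plexus markers summed to 306 to 410 CPM, against 97.9 to 177 CPM in dural cells, with Folr1, Kcne2, Prlr and Otx2 at 0. Red blood cell markers summed to 1.51 to 154347 against 31.6 to 38.7 CPM. Astrocyte markers, with Aqp4, Aldoc and Agt at 0 in leptomeningeal cells, summed to 1362 to 1548 against 108 to 130 CPM. Those of mast cells (64.0 to 123 against 10.3 to 11.2 CPM) and oligodendrocyte precursors (9.88 to 31.6 against 3.25 to 7.45 CPM) were also higher in leptomeningeal cells without overlap. Lists that were higher in dural cells without overlap were those of microglia (1867 to 2295 against 5728 to 8149 CPM, with P2ry12, Siglech and Gpr34 at 0 in dural cells), VSMCs (49.2 to 291 against 613 to 760 CPM), Schwann cells (0 to 24.7 against 34.6 to 141 CPM) and bone lineage cells (0 to 5.27 against 61.4 to 93.8 CPM). Apart from the hemoglobin genes, the part of these lists in the differences was not tested.

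**Figure D2:**
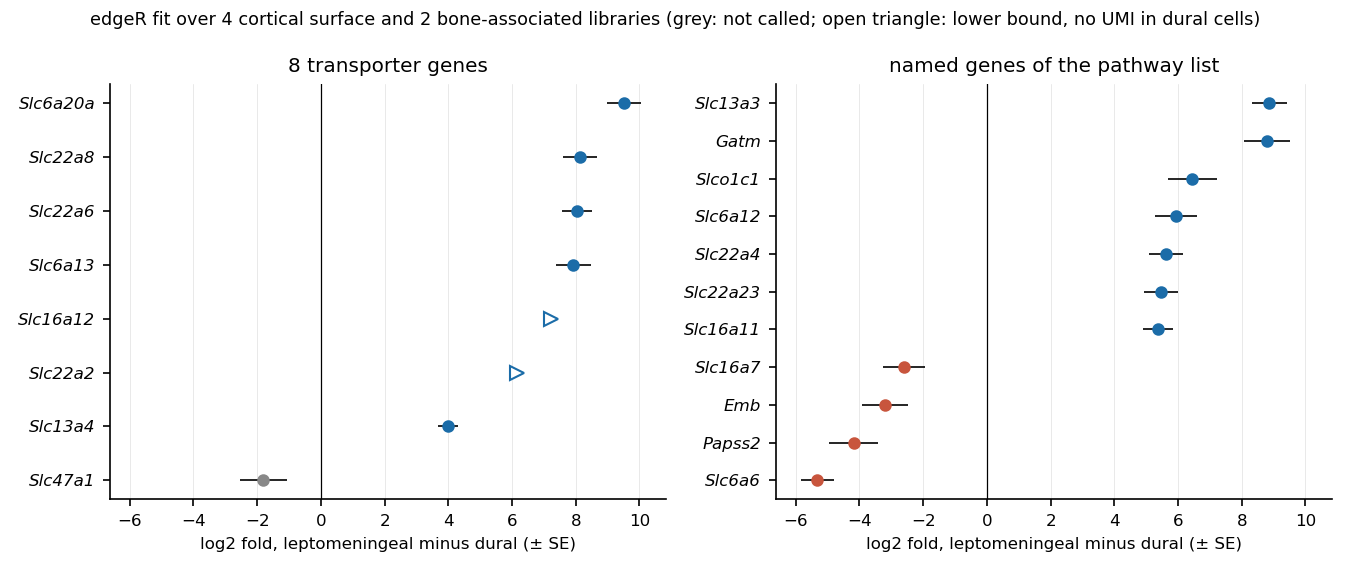
Fitted log2 fold change of leptomeningeal over dural cells with its standard error, for the 8 transporter genes and for 11 named genes of the list of other transporter and metabolism genes (blue higher, red lower, grey not called). Open triangles are the lower bounds of Slc16a12 and Slc22a2, which had no UMI in dural cells, Slc6a20a lies furthest to the right at 9.51 and Slc47a1 is the only grey point at -1.80.

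Within the CSA libraries, leptomeningeal cells were compared with 4 further classes in a fit with library as a term, over 10101 genes. Slc47a1 was found in over 10% of the cells of none of the 5 classes and was not tested, so 7 members entered. Against pericyte-like cells, 6 of 7 were called higher (10.0% of all genes). Against VSMC-like cells, taken from CSA1 and CSA2 where at least 10 cells were found, it was 7 of 7 (14.3% of all genes). Against endothelial-like cells it was 6 of 7 (12.9%), and against choroid plexus-like cells, from CSA3 and CSA4, 7 of 7 (27.7%, with the median of all genes itself shifted by 0.29 on the log2 scale). None was called lower. The members' median log2 fold changes were 8.19, 10.13, 8.66 and 4.12 in the same order, or 5.42, 9.62, 8.66 and 4.12 with genes that had no UMI in the second class at their lower bounds. All 7 members passed the detection filter through leptomeningeal cells, and some of them through another class as well. The members had also been chosen with earlier results known, so these counts describe the members and support nothing further.

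Against VSMC-like cells, Slc22a6 and Slc22a8, which had no UMI there, were at least 951-fold and 249.5-fold higher in leptomeningeal cells. Slc6a20a differed by 9.62 ± 0.31 log2 (edgeR, adjusted p = 6.28e-22), Slc16a12 by 4.76 ± 0.37 and Slc22a2, with 4 UMIs in VSMC-like cells, by 5.06 ± 0.63. Against choroid plexus-like cells, Slc22a6 and Slc6a13 were at least 359-fold and 733-fold higher. The differences there were 6.07 ± 0.30 log2 for Slc6a20a, 4.12 ± 0.30 for Slc13a4, 3.81 ± 0.49 for Slc16a12 and 2.97 ± 0.33 for Slc22a8. For Slc22a2, 2 UMIs in choroid plexus-like cells gave a ratio of 32.4 with a counting interval of 8.78 to 271. Its calls against both classes were lost with DESeq2 (adjusted p = 0.318 and 0.312).

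Slc22a8 was the member that endothelial-like cells shared. These cells had 223, 240, 164 and 137 CPM in CSA1 to CSA4 (mean 191 ± 48.6, n = 4), and 48.4% of them had a UMI. The libraries overlapped those of leptomeningeal cells, and the log2 difference between the classes was 0.21 ± 0.16 (edgeR, adjusted p = 0.295), with an interval of -0.10 to 0.52. The means of the other 7 genes in CSA endothelial-like cells were at most 2.06 CPM. Slc22a6, the gene next to Slc22a8, had 2 UMIs in 543 of these cells.

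In the bone-associated libraries, endothelial-like cells held Slc22a8 at 63.4 and 23.3 CPM (mean 43.4 ± 28.3, n = 2), below all 4 CSA libraries. The difference between the preparations was 2.25 ± 0.30 on the log2 scale (edgeR, adjusted p = 3.61e-05), where 2.06% of all 7713 genes were called higher. Slc22a8 was the only member found often enough to be tested. It passed the detection filter through CSA cells, the group where it was higher, so the count of called members supports nothing further. The endothelial-like clusters were not the same in the 2 preparations. In the CSA libraries, a cluster led by Lhx6, Slc38a5 and Vwf had 343, 256, 139 and 167 CPM and a cluster led by Car5a and Mfsd2a, a lipid transporter of the blood-brain barrier, had 228, 291, 240 and 149 CPM of Slc22a8. The remaining CSA cluster, led by the arterial genes Cytl1 and Gkn3, had 13.3, 0 and 18.7 CPM in CSA1, CSA2 and CSA4.

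Among BA endothelial-like cells, Slc22a8 lay almost wholly in the 125 cells of a cluster led by Slc22a8 itself and by Slc38a5 and Slco1c1, other transporter genes of brain endothelium, with 143 CPM in BA1 and 91.6 CPM in BA2. The cluster led by Btnl9 and Gpihbp1, a gene of fenestrated and peripheral capillaries, had 12.3 and 0.821 CPM, and that led by the venous adhesion genes Selp and Sele 3.46 and 0 CPM. A BA cluster of 151 cells led by Gkn3 and Gja5, which stayed unnamed, had 0 UMIs of Slc22a8. That cluster was not in the test between preparations, although 8 of 8 endothelial markers had a UMI in at least 20% of its cells. The CSA cluster led by Cytl1 and Gkn3 was in the test, so the tested classes were not balanced. Slc22a8 took no part in the clustering, and the differences between clusters are descriptions with no test. Of the 7 blood-brain barrier markers, those with a UMI in at least 20% of cells numbered 6 in the CSA cluster led by Lhx6, 7 in that led by Car5a and 7 in the BA cluster led by Slc38a5, and of the 7 fenestrated or venous markers 4, 1 and 6. In these 3 clusters, the Slc22a8 range over libraries was 139 to 343 CPM in the CSA and 91.6 to 143 CPM in the BA cells, so that the lowest CSA value and the highest BA value met.

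Pericyte-like cells shared Slc6a20a and Slc16a12 with leptomeningeal cells. In the CSA libraries, Slc6a20a had 270, 316, 196 and 260 CPM (mean 261 ± 49.3, n = 4) with a UMI in 47.4% of cells, and Slc16a12 had 57.6, 63.0, 57.3 and 69.0 CPM (mean 61.7 ± 5.51, n = 4) with a UMI in 25.2% of cells. Both were lower in every library than in any leptomeningeal library. The log2 difference was 2.12 ± 0.13 for Slc6a20a (edgeR, adjusted p = 4.43e-15). For Slc16a12 it was 1.07 ± 0.22 (adjusted p = 0.000217), under the limit of 1.3 for a call. Slc22a8 was found at 22.7, 43.4, 24.5 and 18.3 CPM, or 3.14 ± 0.21 log2 below leptomeningeal cells.

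All 3 genes were higher in the CSA pericyte-like cluster led by Atp13a5 than in that led by Colec11 and Cyp4b1, with no overlap between the libraries of the clusters. For Slc6a20a, the former had 683, 683, 354 and 537 CPM and the latter 102, 55.7, 121 and 75.2 CPM. For Slc16a12, the values were 89.3, 123, 88.4 and 112 CPM against 44.8, 20.4, 42.3 and 40.0 CPM, and for Slc22a8 52.5, 91.6, 63.2 and 31.6 CPM against 10.7, 9.28, 6.05 and 9.41 CPM. The first cluster held the higher summed level of the 6 pericyte markers, 7293 against 3310 CPM. The clusters also differed in endothelial markers, which summed to 946 CPM in the first and 500 CPM in the second, and the part of endothelial RNA in the Slc22a8 values was not tested.

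Pericyte-like cells of the bone-associated libraries had far less of these genes. Slc6a20a stood at 18.5 and 7.86 CPM and Slc16a12 at 22.2 and 3.37 CPM, each below all 4 CSA libraries. Both were called higher in CSA cells (2 of 2 tested, 1.89% of all 7499 genes), by 4.39 ± 0.38 log2 for Slc6a20a (edgeR, adjusted p = 2.12e-06) and 2.69 ± 0.50 log2 for Slc16a12 (adjusted p = 0.00179). Both passed the detection filter through CSA cells, the group where they were higher, so the count describes them and supports nothing further. The Slc16a12 call rested on BA2, without which the difference was 1.38 log2 (adjusted p = 0.128). Slc22a8, under the detection limit in both groups, had 74 UMIs in 496 CSA and none in 142 BA cells, which made it at least 11.3-fold higher. Even in the BA cluster led by Pla1a and Col4a4, with all 6 pericyte markers, Slc6a20a had 61.4 and 20.9 CPM and Slc16a12 73.7 and 8.95 CPM, so for Slc16a12 BA1 lay between the CSA clusters and BA2 below both.

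**Figure D3:**
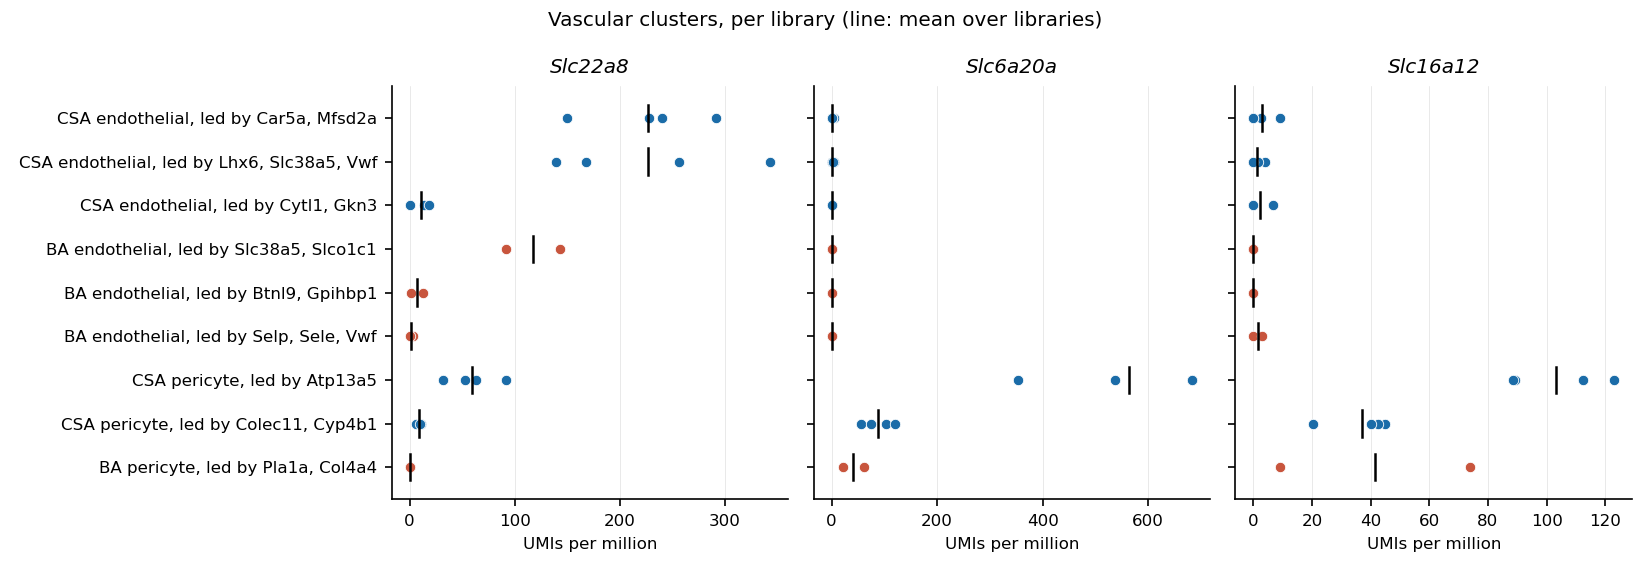
Level in CPM of Slc22a8, Slc6a20a and Slc16a12 in the endothelial-like and pericyte-like clusters, with a point for each library of at least 10 cells (blue, cortical surface-associated; red, bone-associated) and a line at the mean. Slc22a8 lies in the CSA clusters led by Lhx6 and by Car5a (139 to 343 CPM) and the BA cluster led by Slc38a5 and Slco1c1 (91.6 and 143 CPM), while Slc6a20a and Slc16a12 are highest in the CSA pericyte-like cluster led by Atp13a5.

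Choroid plexus-like cells held Slc13a4, Slc16a12, Slc6a20a and Slc22a8 at levels that differed between libraries. In CSA3 and CSA4, Slc13a4 had 18.2 and 19.8 CPM, Slc6a20a 14.6 and 7.91 CPM and Slc16a12 7.29 and 5.94 CPM. The 13 cells of BA1 had 277, 55.9 and 35.7 CPM of the same genes, from 233, 47 and 30 UMIs, above both CSA libraries in each case. The BA cluster, of 14 cells, was also much deeper, with a median of 67678 UMIs per cell against 8202 in the CSA cluster, and no test was made with 1 BA library. Slc22a8 did not follow this pattern, at 18.2 and 18.8 CPM in the CSA libraries and 16.6 CPM in BA1. Slc6a13 and Slc22a6 had 1 and 0 UMIs in all choroid plexus-like cells of libraries with at least 10 of them.

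Slc6a13 was also found in T or NK cell-like and in unnamed clusters of both preparations. In the T or NK cell-like cluster led by Cd163l1, Tcrg-V6 and Il23r, it had 21.1 and 82.8 CPM in BA1 and BA2, where 39.3% of the 140 BA2 cells had a UMI, and 77.8 and 10.4 CPM in CSA3 and CSA4. Clusters that stayed unnamed for having under 3 leading markers of any class, led by Arg1 with Il5 in the BA and with Csf2 and Il1rl1 in the CSA libraries had 61.5 and 53.1 CPM (BA1, BA2) and 45.2 and 59.8 CPM (CSA3, CSA4). In the BA T or NK cell-like cluster led by Cd160 and Cd8a, by contrast, it had 3.18 and 2.79 CPM. Mast cell-like cells of the BA libraries had 9.43 and 19.9 CPM. The median depth was 5972 UMIs in the BA cluster led by Cd163l1 against 7168 in that led by Cd160, and none of these differences was tested.

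The CSA border macrophage-like cells showed low levels of 7 of the 8 genes, up to 27.3 ± 30.0 CPM (n = 4) for Slc6a13. Of the 718 cells, 13 had UMIs of at least 4 of the genes. As a description of cells chosen for these same genes, they held 82.7% of the UMIs of the class for Slc6a13, 78.4% for Slc6a20a, 66.7% for Slc22a2, 64.2% for Slc22a6, 61.1% for Slc13a4, 54.3% for Slc22a8 and 33.3% for Slc16a12. Their median depth was 24388 UMIs against 8109 for the class, and they also held 58.0% of its UMIs of Ptgds and 66.8% of those of Gjb6, which mark leptomeningeal cells. How those cells came to hold both sets of RNA was not tested. For comparison, 2 of 363 CSA B cell-like cells had a UMI of any of the 8 genes, 1 of Slc6a13 and 1 of Slc6a20a.

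Depth differed between leptomeningeal and dural cells, with medians of 7583 and 14660 UMIs, so the shares were also taken at 1500 UMIs per cell. In leptomeningeal cells they were then 85.8% for Slc6a13, 80.4% for Slc6a20a, 65.8% for Slc22a6, 130 of 260 cells for Slc13a4, 35.0% for Slc22a8, 12.7% for Slc16a12, 6.92% for Slc22a2 and 2.69% for Slc47a1. In dural cells they were 14.4% for Slc47a1, 4.32% for Slc13a4, 0.719% for Slc6a13 and 0 for the other 5 genes, which with 278 cells allows a share of up to 1.08%. Slc22a8 was found in 21.2% of CSA and 3.64% of BA endothelial-like cells at that depth.

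Leptomeningeal cells often held UMIs of several of the genes. The median cell had UMIs of 5 of the 8 genes, 240 of 274 cells (87.6%) had at least 4, and 3 cells had none. Several members were each found in most of these cells, so such counts alone do not show that the genes go together. Whether they exceed the counts given by the single-gene shares was not tested. No dural cell and 5 of 496 CSA pericyte-like cells had 4 or more. At a fixed depth of 1500 UMIs per cell, for which 14 leptomeningeal cells were too shallow, the median was 3 genes, and 127 of 260 cells (48.8%) had at least 4 against none of the 278 dural cells deep enough. Across the leptomeningeal cells, within libraries, the correlation of log values was highest between Slc6a13 and Slc6a20a (Pearson r = 0.47) and between Slc22a6 and Slc6a13 (0.44). It was negative between Slc47a1 and Slc6a13 (-0.49). Some pairs were only weakly correlated, such as Slc22a6 with Slc22a2 (0.03) and Slc16a12 with Slc6a13 (0.06). These correlations describe 274 cells that share libraries and differ in depth, and carry no p-value.

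**Figure D4:**
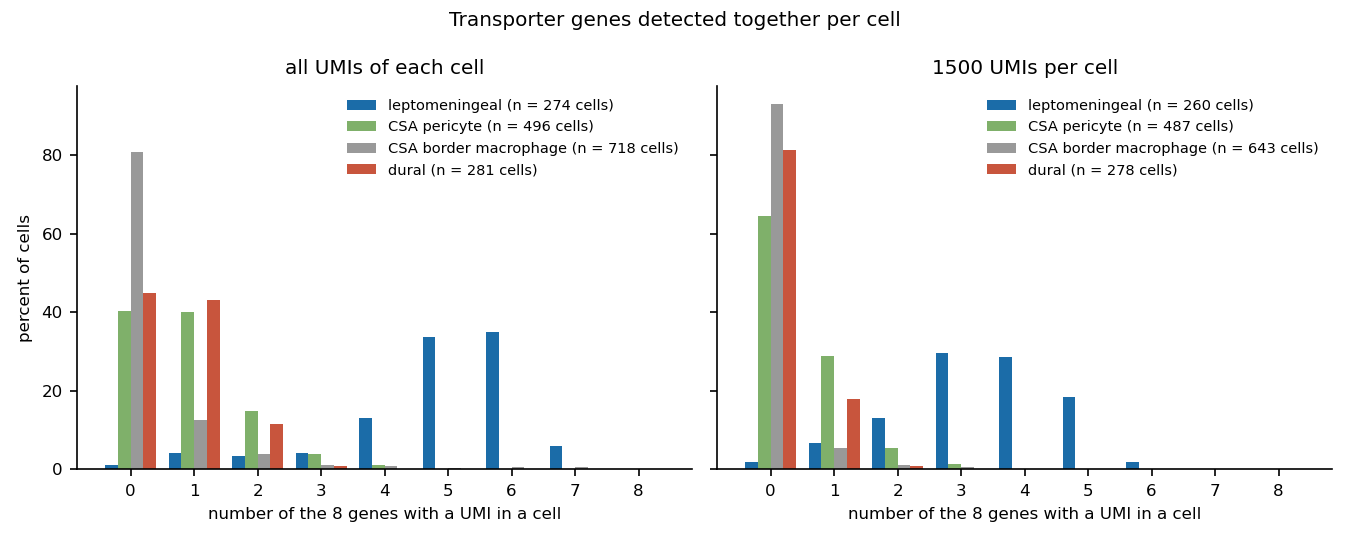
Percent of cells with UMIs of 0 to 8 of the genes in leptomeningeal, CSA pericyte-like, CSA border macrophage-like and dural cells, with all UMIs (left) and with each cell thinned to 1500 UMIs (right). Leptomeningeal cells peak at 5 and 6 genes with all UMIs and at 3 and 4 genes at equal depth, whereas most cells of the other classes hold 0 or 1.

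Slc47a1 was found in few leptomeningeal cells. Its 94 UMIs lay in 10 cells, 5 of CSA2 and 5 of CSA4, with up to 31 UMIs in a cell. Sub-clustering the leptomeningeal cells without the 8 genes gave a sub-cluster of 251 cells with no Slc47a1 UMI and a sub-cluster of 23 cells (3, 11, 1 and 8 from CSA1 to CSA4) that held all 10. Besides Slc47a1, the genes that led the small sub-cluster were Slc26a7, an anion exchanger, Slc16a1, the monocarboxylate transporter MCT1, Tspan11, Adamtsl3 and Kcnk5. This split was taken at the lowest of 5 resolutions tried, 0.2. At 0.3 the cells fell into groups of 156 and 118, and at 0.5 into groups of 113, 94, 42 and 25. At 0.8 and 1.0 the smallest groups had 37 and 39 cells. Whether any of these groups held the same cells as the small sub-cluster was not checked. The resolution was chosen after its values were seen, too few libraries had 10 cells in both sub-clusters for the planned fit, and the values carry no test.

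The small sub-cluster had less of the other 7 genes, although its cells were deeper (median 11886 against 7418 UMIs). Slc6a13 was at 1889 CPM in the large and 401 CPM in the small sub-cluster, Slc22a6 at 893 against 427 CPM, Slc13a4 at 561 against 186 CPM and Slc6a20a at 1162 against 551 CPM. At 1500 UMIs per cell, Slc6a13 was found in 91.1% of 237 cells of the large (95% interval 86.8 to 94.4) and 30.4% of 23 cells of the small sub-cluster (13.2 to 52.9). With all UMIs, Slc22a6, Slc6a13 and Slc6a20a were found in 13, 12 and 13 of the 23 cells of the small sub-cluster, and most of its cells without them held Slc47a1. Of the 10 cells with Slc47a1, 2 had Slc22a6, 2 had Slc6a13 and 2 had Slc6a20a, against 239, 254 and 253 of the 264 others. Of the 5 leptomeningeal markers, Ptgds was found in 10 of these cells, Gjb6 in 9, Gjb2 in 7, Bmp6 in 4 and Lama1 in 1, against 259, 258, 250, 239 and 164 of the 264 others. The level of Ptgds was 26782 against 84357 CPM and that of Gjb2 223 against 1356 CPM. Of the 4 dural markers, Shisa3 was found in 4 of the 10 cells, Clec11a in 2, H19 in 1 and Matn4 in 0, against 0, 6, 1 and 2 of the 264 others.

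Of 7 genes listed as pial markers, Coch, an extracellular matrix protein, was found in 87.3% of the large and 8.70% of the small sub-cluster, Bmp2 in 59.0% and 21.7%, Lamc3 in 71.3% and 34.8% and Gjb2 in 95.2% and 78.3%. Lama1 (61.4% and 47.8%), Cyp1b1 (62.9% and 69.6%) and Igfbp4 (73.3% and 65.2%) differed less. Of 6 genes listed as arachnoid markers, Bnc2 was found in 1.99% of the large and 26.1% of the small sub-cluster and Dpp4 in 2.39% and 8.70%. Ppp1r1a was at 104 CPM in the large and 14.6 CPM in the small sub-cluster, Opn3 had 1 UMI in the large sub-cluster, and Cdh1 and Rspo2 had no UMI in either. The small sub-cluster was given no name.

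In dural cells Slc47a1 was spread more widely, in 124 of 281 cells. Dural cells were split at a resolution that was also chosen after its values were seen, and the values by sub-cluster carry no test. A UMI of Slc47a1 was found in 71.6% of 67 cells led by Pappa, Npr3, Krt12, Gjb6 and Gjb2. It was found in 41.9% of 124 cells led by En1 and Mmp9 and in 26.7% of 90 cells led by Ccl11, Col15a1 and Pi16. At 1500 UMIs per cell these shares were 28.8%, 11.5% and 7.78%, with intervals of 18.3 to 41.3, 6.42 to 18.5 and 3.18 to 15.4. The middle interval overlapped both others, and the first and last did not overlap. Gjb6 and Gjb2, which led the first sub-cluster over the other dural cells, are also among the leptomeningeal markers used here. Of all 124 dural cells with Slc47a1, 21.0% had Gjb6 and 14.5% had Gjb2. Each of the dural markers was found in at least 75.0% of them. The order of the Slc47a1 levels over the sub-clusters was not the same in both libraries.

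In BA2, Slc47a1 had 284, 98.2 and 114 CPM in these sub-clusters, in the same order, whereas in BA1, with 8, 12 and 12 cells, it had 130, 139 and 187 CPM. Slc13a4 had 40.0, 4.94 and 46.6 CPM in BA2 and 169, 8.68 and 0 CPM in BA1, and was found in 38.8%, 8.06% and 14.4% of all cells of the sub-clusters (6.06%, 1.64% and 6.67% at 1500 UMIs). In neither library did the levels of the 2 genes follow the same order.

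**Figure D5:**
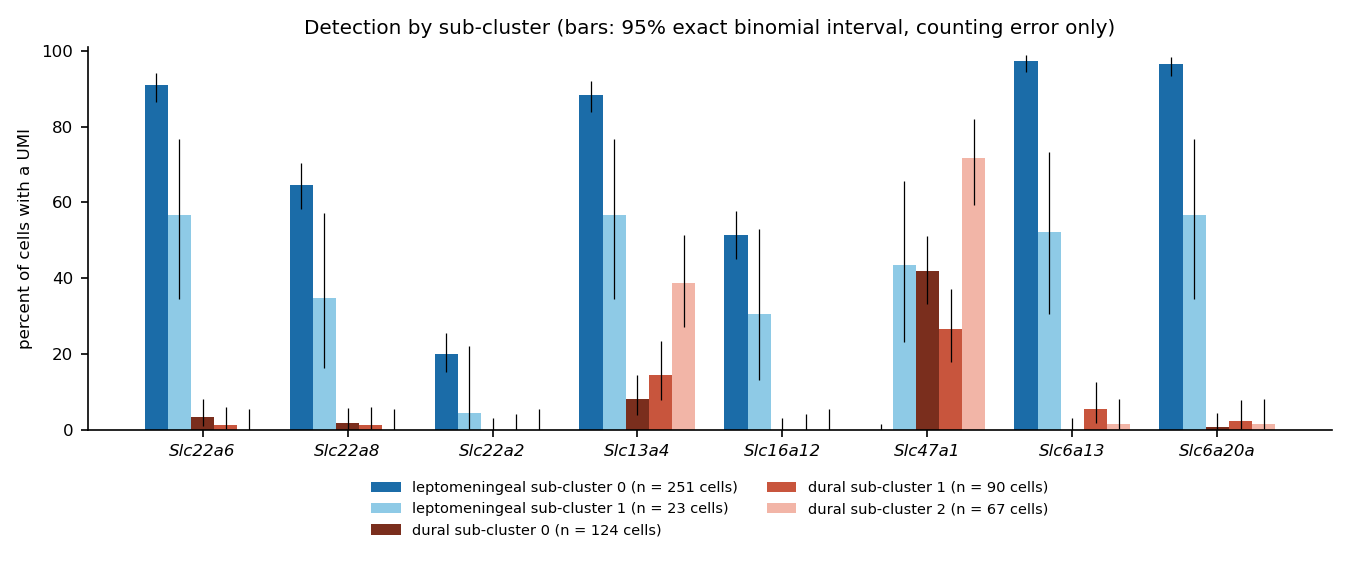
Percent of cells with a UMI of each gene in the 2 leptomeningeal and 3 dural sub-clusters, with 95% exact binomial intervals for counting error only. Slc47a1 has no UMI in the large leptomeningeal sub-cluster, 43.5% in the small one and 26.7% to 71.6% in the dural ones, while the other 7 genes are most frequent in the large leptomeningeal sub-cluster.

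The genes whose levels most resembled those of the members were sought among 13436 genes over 69 sums of library and class, by the Pearson correlation of log2(CPM + 1). The sums share libraries and classes, so the coefficients are descriptions. For Slc22a6 they were Ranbp3l (0.95), the connexin gene Gjb6 (0.94) and Asgr1 (0.94), and for Slc6a13 they were Slc22a6 (0.85), Gjb6 and Ranbp3l. Slc16a12 and Slc6a20a were each the nearest gene of the other (0.94), followed for both by Slc30a10, a manganese exporter gene, and Gm31409. Slc22a8 was nearest to 2700046A07Rik (0.84) and to Slco1a4 and Slc38a3, both transporter genes of brain endothelium (0.83 and 0.82). Slc13a4 was nearest to Pdgfra (0.94), Frmpd4 and Syt12, Slc22a2 to Adra1a (0.89), Kcnt1 and Wfikkn2, and Slc47a1 to Prmt8 (0.94), Slc26a7 and Tspan11.

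Of 77 other transporter and metabolism genes listed with the members, 38 were found often enough to be tested between leptomeningeal and dural cells, of which 14 were called higher and 5 lower, where 5.62% of all genes tested were called higher and 8.28% lower. Their median log2 fold change was -0.07, against -0.02 over all genes. By family, 2 of 6 tested genes of the organic anion and cation family were called higher, as were 4 of 6 of the sodium- and chloride-dependent family (with 1 lower), 2 of 3 organic anion transporting polypeptides and 1 of 7 monocarboxylate transporters (with 2 lower). Among 7 genes of sulfate, creatine and GABA metabolism, 3 were called higher and 1 lower, and none of 4 ABC efflux pumps was called.

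The named genes that were higher in leptomeningeal cells include close relatives of the members. Slc13a3, the dicarboxylate carrier that supplies the exchange of organic anions in the kidney, had 256 ± 71.5 CPM (n = 4) in leptomeningeal cells and 2 dural UMIs, a pooled ratio of 607 with a counting interval of 167 to 5026 (edgeR, adjusted p = 9.11e-09). Gatm, the enzyme of the first step of creatine synthesis, had 339 ± 200 CPM and 3 dural UMIs, a ratio of 587 (interval 200 to 2854). Slco1c1 (a thyroid hormone carrier) had 1 dural UMI, with a ratio of 122 (21.1 to 4878). Slc6a12, next to Slc6a13, had 32.4 ± 14.9 CPM and 2 dural UMIs, a ratio of 76.5 (20.5 to 642). Slc22a4, a carnitine and ergothioneine transporter, was higher by 5.61 ± 0.53 log2, Slc22a23 by 5.46 ± 0.53 and Slc16a11 by 5.37 ± 0.48 (edgeR, adjusted p = 8.68e-07, 1.18e-06 and 4.71e-07).

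The named genes that were lower in leptomeningeal cells were the taurine transporter Slc6a6, with 16.5 ± 14.1 CPM against 661 ± 36.6 CPM in dural cells (log2 -5.32 ± 0.51, edgeR, adjusted p = 9.97e-07), and Emb, a partner subunit of monocarboxylate transporters, with 51.3 ± 65.5 against 476 ± 165 CPM (log2 -3.20 ± 0.73, adjusted p = 0.00446). Slc16a7 (MCT2) had a log2 value of -2.60 ± 0.67 and Papss2, which makes the activated form of sulfate, had 2 leptomeningeal against 66 dural UMIs (ratio 0.0559, interval 0.00663 to 0.210). Both taurine carriers, Slc6a13 and Slc6a6, were thus called, in opposite directions.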

How the data were processed

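Gene expression was measured by droplet single-cell RNA sequencing in 4 CSA and 2 BA libraries. Per the labels, Cell Ranger version 3 and mm10 were used, while the matrix headers name version 6.1.2. The authors deposited raw UMI counts per gene and barcode, and no other unit was used. No correction for free RNA was made.

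Barcodes with fewer than 500 genes or over 10% mitochondrial UMIs were left out. Likely doublets (124 cells) were then removed at a rate of 0.8% per 1000 barcodes that had passed these filters. Cells of each preparation were clustered (2000 variable genes without the members and listed transporter genes, 30 components, 15 neighbours, Leiden resolution 1.5). Clusters took a class name from at least 3 leading markers unless markers of another class led too. The limit for such a second list was set to 60% after the clusters were seen, and 50% was run as an alternative. The authors' own clusters were not used here, so class shares can differ from theirs.

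UMIs were summed per library and class with at least 10 cells and tested with edgeR 4.0.16 (R 4.3.3, quasi-likelihood, TMM), over genes found in over 10% of cells of a group. A fit over 5 CSA classes had library as a term, the other fits had none. SEs were taken from the fold change and its F value, and intervals are 95%. Genes with 0 UMIs in a group were given a floor of 3 UMIs over that group, and genes with at least 100 UMIs were searched for similar genes. Scripts were tested on simulated data. Alternatives were upper-quartile scaling, DESeq2 1.42.0, other filters and clustering, thinning to 1500 UMIs, no hemoglobin genes, a replicate block, and each library left out.

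The 8 members, the marker lists and the list of 77 transporter genes were chosen with earlier results of these data known. From that list, the genes named were called and reached 50 UMIs in the group where they were higher, the 8 largest fitted changes in each direction, and 1 of them is not reported here. Sequences are from RefSeq and positions from GENCODE.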

Additional observations from a re-analysis of the deposited data

How the results depend on the processing

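Of the members' single results, 585 values under alternatives kept direction and side of the threshold, 4 newly passed it, 5 no longer did and none reversed. Slc47a1, not called between leptomeningeal and dural cells, was called lower at 1500 UMIs per cell (log2 -2.21, adjusted p = 0.00607) and without CSA4 (-2.46, adjusted p = 0.00445). Over all its alternatives its log2 value ran from -2.46 to -1.04 with adjusted p up to 0.887. Slc16a12 reached the fold limit against pericyte-like cells without CSA2 (log2 1.34). Under DESeq2, Slc22a2 lost its calls against pericyte-like (adjusted p = 0.0643), VSMC-like (0.318) and choroid plexus-like cells (0.312), and against the last also without CSA3 (0.0904). Between CSA and BA pericyte-like cells, 1 member in place of 2 was called at 1500 UMIs per cell, where fewer genes were tested, and without BA2, where 2 were tested. Leaving out each library in turn gave 1 to 3 calls there and changed none of the other counts of called members by over 1.5 times. With at most 5% mitochondrial UMIs, too few VSMC-like cells remained for a value.

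Over all genes, thinning to 1500 UMIs cut the calls of leptomeningeal against dural cells to 258 higher and 303 lower of 2658 tested, from 534 and 787. Against pericyte-like, VSMC-like, endothelial-like and choroid plexus-like cells it left 437, 644, 571 and 1309 higher and 522, 603, 673 and 664 lower, from 1011, 1440, 1307 and 2802 higher and 876, 1137, 1251 and 1905 lower. Between preparations it left 104 higher and 155 lower in endothelial-like and 55 and 191 in pericyte-like cells, from 159, 359, 142 and 460. Without BA2, 330 genes were higher and 639 lower in leptomeningeal than in dural cells, and 103 and 305 in CSA than in BA endothelial-like cells. No detection filter gave 280 and 530 for endothelial-like cells, and resolution 1.0 gave 214 and 643 for pericyte-like cells.

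CSA and BA libraries share only the numbers 1 and 2 in their labels, and deviations of equally numbered libraries correlated at 0.07 and 0.18. Deviations of BA1 and BA2 from their own mean are opposite by construction. The unequally numbered pairs were therefore fixed at -0.07 and -0.18, and these correlations cannot show whether the libraries are paired. With a replicate block, 578 genes were called higher and 917 lower in leptomeningeal than in dural cells, 7 members higher and Slc47a1 lower (log2 -2.30). The difference in that fit rests on CSA1 and CSA2 against BA1 and BA2, since CSA3 and CSA4 have no equally numbered BA library. Few libraries were left beyond its terms to estimate the spread, which limits these calls. No other call of a member changed with the block, or without the library term within CSA. The planned fit between leptomeningeal sub-clusters and its alternatives were not run, since too few libraries had 10 cells in both.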

Other observations

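Barcodes that did not pass the cell filters also held RNA of these genes. In CSA1 and CSA2, the 212 and 526 barcodes left out had 199 and 105 CPM of Slc22a6 and 372 and 205 CPM of Slc6a13. In CSA3 and CSA4, where 4114 and 3401 barcodes were left out, Slc22a6 stood at 0.0420 and 0.515 CPM. The 143 barcodes left out of BA1 had 82.2 CPM of Slc13a4 and none of Slc22a6. For Slc22a2, barcodes left out of CSA1, CSA2, BA1 and BA2 held 38, 70, 18 and 34 UMIs, against 180 in all kept cells. For Slc13a4 they held 182, 271, 132 and 94 UMIs in the same order, against 1698 in kept cells. The shares of UMIs in leptomeningeal cells leave such barcodes out.

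Each gene was checked for a value far from the others of its group in 21 groups, and none stood out.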
